A study of Mus musculus with 20 samples.

Results

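The livers described here came from male mice without PPARα that drank water with or without perfluorooctanoic acid (PFOA), a fluorinated industrial surfactant. They were chosen by genotype, sex and exposure as the titles give them, and make up 6 of the 20 libraries of the series. KO male PFOA holds 3 libraries of male PPARα knockout mice given 8 µM PFOA (the design text writes µm, read here as micromolar) in water with 0.5% sucrose. KO male vehicle holds 3 libraries of male PPARα knockout mice given the sucrose water alone. Both groups drank from weaning for 6 to 7 weeks and ate a diet with 51.8% of its energy from carbohydrate, 33.5% from fat and 14.7% from protein, so every vehicle animal also carried the deletion, the sugar and the diet. 2 further contrasts served for comparison. They were PFOA in males that express human PPARα (hPPARa, 3 PFOA and 2 vehicle libraries) and PFOA in KO females (3 PFOA libraries and 1 vehicle library), with the same water and diet. The labels give neither the strain nor the allele of the knockout, nor the promoter or cell type that drives the human receptor. They do not say that each library is a separate mouse, so p-values measure the spread between these libraries, which may be technical.

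PFOA binds and activates PPARα, a nuclear receptor of hepatocytes that switches on genes of peroxisomal and mitochondrial fatty acid oxidation, and rodent liver is the classical site of that response. The same organ holds other xenobiotic receptors. CAR and PXR switch on cytochrome P450, glutathione transferase, glucuronosyltransferase and transporter genes that clear drugs and bile acids, and they recognise repeats of short hormone response half-sites. A knockout of PPARα leaves these other receptors in place, which makes it the setting in which a PFOA response without PPARα can be read. The sex of the animal also matters in this tissue, because the pituitary's growth hormone pattern keeps blocks of P450, sulfotransferase and urinary protein genes at different levels in males and females.

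Ppara, the targeted gene, gave 20.2, 20.1 and 19.9 CPM (counts scaled to 1000000 per library after composition scaling) in vehicle replicates 1 to 3 and 21.2, 18.3 and 25.1 CPM in PFOA replicates 1 to 3. The reads counted for it therefore do not check the genotype, and the 2 groups overlapped (log2 fold change 0.11 ± 0.13 SE, adjusted p = 0.631). The libraries held 14973673 to 16995298 counts. Transcripts of the Y chromosome were present in all 6 (Ddx3y at 37.1 to 50.0 CPM). Xist, which marks the inactive X, stood at 30.8 CPM in PFOA replicate 2 against 0.442 to 3.21 CPM in the other 5. KO female livers held 425 to 498 CPM of it. Counts of mitochondrially encoded genes took 8.69% ± 0.76 (SD, n = 3) of the PFOA libraries and 11.45% ± 1.95 (SD, n = 3) of the vehicle libraries. The exact two-sided permutation test gave p = 0.1, the smallest that 3 against 3 can give. The 23 hepatocyte markers summed to 111700 to 122000 CPM with PFOA and 144800 to 166600 CPM with vehicle, and 5 of them fell (Trf, Ahsg, Alb, Amy1 and Serpina1a), while 1 marker of the list fell without PFOA replicate 2. In bulk liver, fewer cells of a type and less RNA per cell cannot be told apart. Over all genes tested, 6.72% rose and 4.1% fell. Of 22 Kupffer cell and macrophage markers, 19 were tested, 3 rose and 1 fell, with 0 to 5 rises when single libraries were left out. Endothelial markers gave 3 rises of 20 tested, cholangiocyte markers 1 rise and 2 falls of 9, and lymphocyte markers 1 rise of 8. The Kupffer cell fall and 1 of the cholangiocyte falls are the same gene, Spp1, which is on both lists. The median log2 fold change of 17 tested stellate cell and fibroblast markers was −0.38. Summed levels of the Kupffer cell, endothelial and stellate cell lists overlapped between the groups. The 18 lymphocyte markers summed to 23.6 to 26.65 CPM with PFOA and 17.97 to 20.6 CPM with vehicle, without overlap. Their 8 tested members did not rise in general, with a median log2 fold change of 0.20. All PFOA libraries lay above all vehicle libraries for 1 of these members and below them for 1. The 1 rise, Ighm, was not called without vehicle replicate 1, 2 or 3, or without PFOA replicate 1. The 13 cholangiocyte markers summed to 68.8 to 102 CPM with PFOA and 114 to 119 CPM with vehicle. The part of these shifts in the results below was not tested.

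PFOA changed the level of 1442 of 13330 genes tested in KO males, 10.8%, at an adjusted p of 0.05 in edgeR's quasi-likelihood test. Of these, 896 were higher (6.72%) and 546 lower (4.1%), and the median log2 fold change of all genes tested was −0.00. At least 2-fold changes numbered 400 upwards (3%) and 149 downwards (1.12%). All 3 PFOA libraries lay above all 3 vehicle libraries for 16.7% of genes and below them for 16.2%. Scaling by library totals alone gave 1179 higher and 382 lower genes, so the higher share moved from 62.1% to 75.5%. Single libraries weighed on the count: it was 662 without PFOA replicate 2, 797 without PFOA replicate 3 and 810 without vehicle replicate 1. Of the 662 genes called without the Xist-bearing replicate, 647 were among the 1442, all with the same sign.

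**Figure D1:**
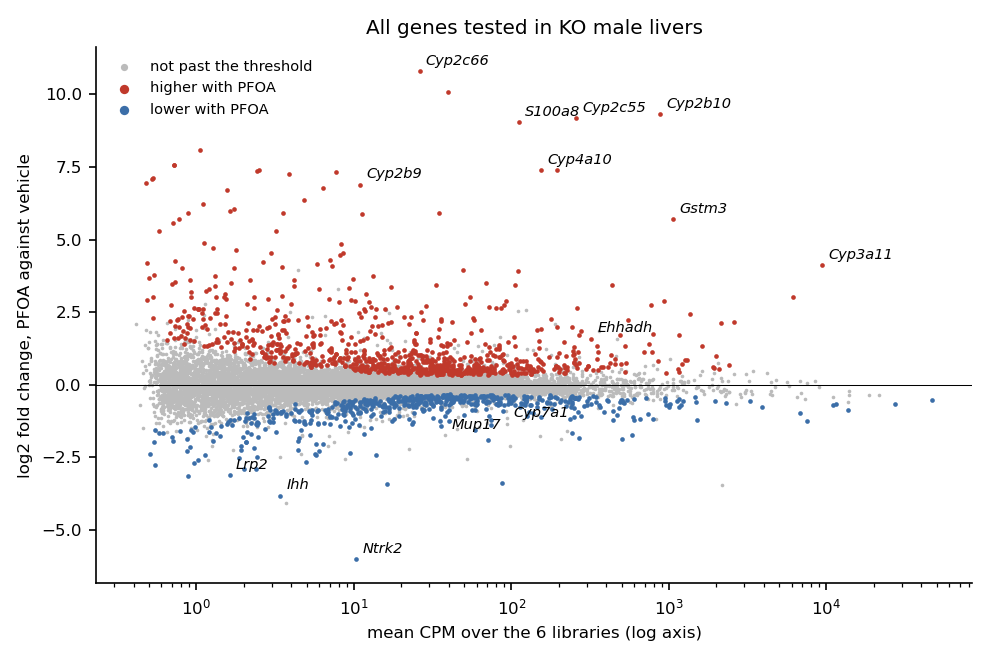
Log2 fold change of PFOA against vehicle (vertical) against mean CPM over the 6 KO male libraries (horizontal, log axis), 1 point per gene tested, with genes past an adjusted p of 0.05 in red (higher, 896) or blue (lower, 546). The 5 largest rises are those of Cyp2c66, Cyp2c65, Cyp2b10, Cyp2c55 and S100a8, from 10.79 down to 9.04, and the largest fall is that of Ntrk2 at −6.00.

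Drug-metabolising genes led the rises. Cyp2b10, the P450 most often used as a readout of CAR, stood at 2.60, 1.89 and 3.66 CPM in vehicle replicates 1 to 3 and at 1524, 2066 and 1643 CPM in PFOA replicates 1 to 3. The groups lay far apart, and the log2 fold change was 9.33 ± 0.27 (adjusted p = 3.32e-07). Cyp3a11, the main P450 readout of PXR, was abundant before exposure, at 957, 944 and 1202 CPM, and reached 20640, 18420 and 14450 CPM with PFOA (4.12 ± 0.18, adjusted p = 1.7e-06). Cyp2c55, a P450 of fatty acid hydroxylation, went from 0.467, 0.878 and 1.26 CPM to 544, 566 and 429 CPM (9.19 ± 0.28). In each of these genes the 3 exposed livers stood close together and far from every vehicle liver. 2 more Cyp2c genes were nearly silent without PFOA. Cyp2c66 had 1 count in the 3 vehicle libraries and 2687 in the PFOA libraries, a ratio of 2372 with an exact 95% interval of 425 to 93710, and Cyp2c65 had 3 and 4121, a ratio of 1212 (415 to 5882). These intervals cover counting error only. Near-identical members of the Cyp2b, Cyp2c, Cyp3a, Cyp4a, Gst, Ces, Acot and Mup families may have exchanged reads when the authors counted, and the value of any 1 of them is uncertain.

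**Figure D2:**
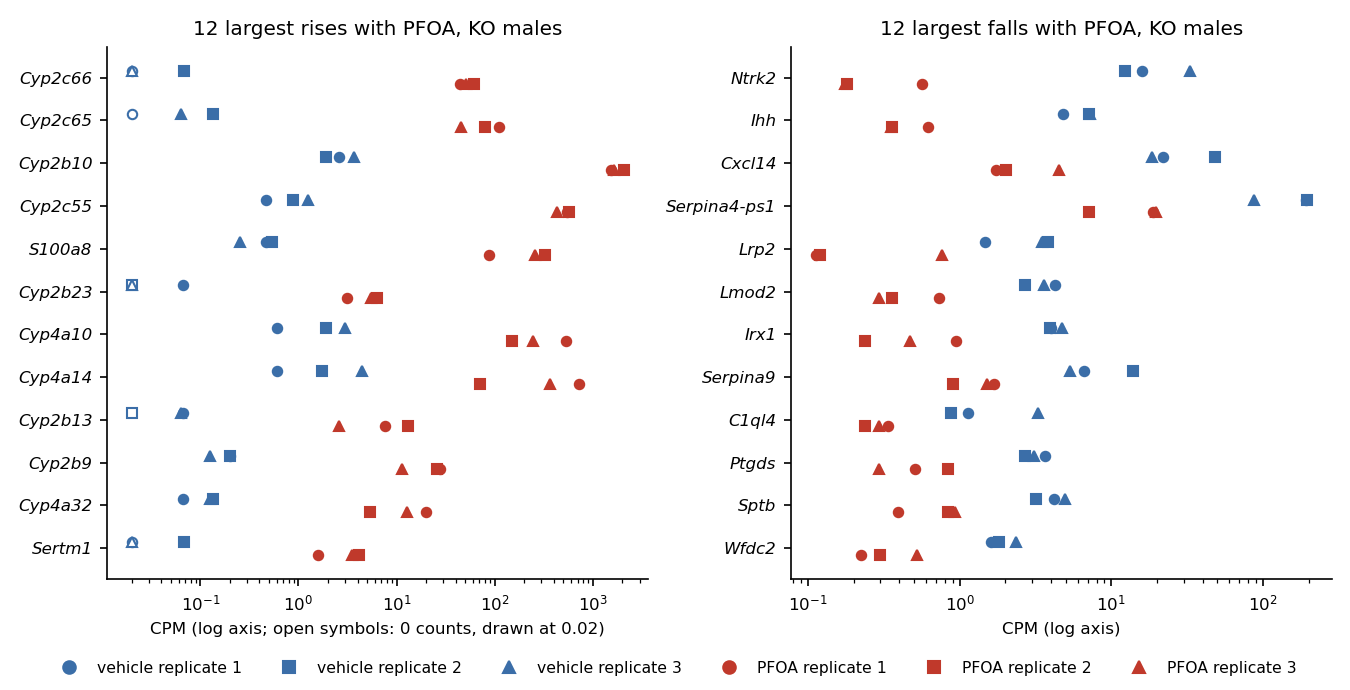
CPM (horizontal, log axis) of the 12 genes with the largest rises (left) and falls (right) in KO males, 1 symbol per library, blue for vehicle and red for PFOA, with shapes for replicates and open symbols for libraries without a count. For each of the 24 genes every PFOA library lies on 1 side of every vehicle library, and Cyp4a14 spreads most widely among the exposed livers, from 70.4 to 720 CPM.

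After Ntrk2, which is described with the sex-biased genes, the largest fall was that of Ihh, a Hedgehog ligand, from 4.81, 7.16 and 7.19 CPM to 0.616, 0.359 and 0.350 CPM (−3.82 ± 0.31, adjusted p = 0.000136). Cxcl14, a chemokine, gave 21.8, 48.4 and 18.7 CPM against 1.74, 2.03 and 4.497 CPM (−3.42 ± 0.58, adjusted p = 0.0235). Its groups were well apart, yet the call was lost without PFOA replicate 1 or 2. Irx1, a homeobox factor, fell by 2.89 on the log2 scale, Ptgds, a prostaglandin D synthase, by 2.51, and Sptb, a spectrin chain, by 2.49, and these 3 calls held in every alternative tried. Calls for Lrp2, C1ql4 and Serpina4-ps1 were each lost in at least 4 alternatives.

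Of 49 tested genes on a list of CAR and PXR targets, 40 rose and none fell, against 6.72% and 4.1% of all genes. The list's median log2 fold change was 1.99. This and the other lists were written with earlier results of these data known, and none was tested as a set. The number that rose was 34 to 39 when single libraries were left out, with 34 without PFOA replicate 2. Among oxidation genes, Por, the reductase that supplies electrons to P450 enzymes, rose from 478, 500 and 487 CPM to 1029, 1063 and 1127 CPM (1.14 ± 0.10). Among conjugation genes, Ugt1a1, which glucuronidates bilirubin, rose from 92.6, 57.7 and 86.8 CPM to 300, 324 and 308 CPM (1.99 ± 0.17). Gstm3, a glutathione transferase, rose from 36.7, 20 and 63.3 CPM to 3119, 2047 and 1080 CPM (5.71 ± 0.70, adjusted p = 0.0112), but its adjusted p was 0.0502 without vehicle replicate 1. Among transporters, Abcc3, which exports conjugates towards the blood, rose from 79.9, 55.5 and 84.1 CPM to 754, 900 and 732 CPM (3.45 ± 0.18), and Abcc2, which exports them into bile, rose less (0.74 ± 0.12, adjusted p = 0.00505). Ces2a, a carboxylesterase, rose from 202, 185 and 210 CPM to 1357, 1438 and 1212 CPM (2.75 ± 0.12). Gadd45b, a stress gene that partners CAR, went from 0.734, 0.743 and 0.378 CPM to 6.16, 16.3 and 10.9 CPM (4.16 ± 0.44). Of the 9 tested members that were not called, Alas1, the first enzyme of haem synthesis, and Tsku, a secreted hepatokine, had log2 fold changes of 1.59 (adjusted p = 0.121) and 2.56 (adjusted p = 0.112). Vehicle replicate 3 held 424 CPM of Alas1 and 73.4 CPM of Tsku against at most 153 and 18.9 CPM in the other vehicle livers. Without it, Alas1 passed with 2.33 (adjusted p = 3.36e-05) and Tsku with 3.61 (adjusted p = 0.00321). Leaving out the vehicle library nearest to the PFOA livers favours a call, so these fits do not show that either gene rose. The highest adjusted p when single libraries were left out was 0.261 for Alas1 and 0.271 for Tsku. The receptors' own transcripts did not pass: Nr1i2, which encodes PXR, had a log2 fold change of 0.46 (adjusted p = 0.0593) and Nr1i3, which encodes CAR, −0.43 (adjusted p = 0.0707).

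The Cyp2b cluster on chromosome 7 holds both a gene of general induction and genes that liver normally expresses in females. Cyp2b9, a female-biased P450, rose from 0.200, 0.203 and 0.126 CPM to 27.4, 26.1 and 11.4 CPM in these males (6.89 ± 0.53, adjusted p = 0.000354). Its close copy Cyp2b13 had 2 counts with vehicle and 398 with PFOA, a ratio of 176 (exact 95% interval 48.3 to 1455), and lost its call without vehicle replicate 3. The promoters of these genes and of Cyp3a11 are shown because the genes rose together. Each sequence is the 250 bases upstream of the start site in RefSeq on GRCm38.p6, read 5′ to 3′ on the gene's strand; the authors' counts used another build. Capitals mark the half-sites AGGTCA and AGTTCA, searched on both strands.
Cyp2b10 (GRCm38.p6, chr7:25897408-25897657, plus strand): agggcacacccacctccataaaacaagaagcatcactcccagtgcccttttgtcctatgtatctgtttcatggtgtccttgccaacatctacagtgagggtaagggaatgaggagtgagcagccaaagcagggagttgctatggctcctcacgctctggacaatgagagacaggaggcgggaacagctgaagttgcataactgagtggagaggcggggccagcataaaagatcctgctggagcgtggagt
Cyp2b9 (GRCm38.p6, chr7:26173159-26173408, plus strand): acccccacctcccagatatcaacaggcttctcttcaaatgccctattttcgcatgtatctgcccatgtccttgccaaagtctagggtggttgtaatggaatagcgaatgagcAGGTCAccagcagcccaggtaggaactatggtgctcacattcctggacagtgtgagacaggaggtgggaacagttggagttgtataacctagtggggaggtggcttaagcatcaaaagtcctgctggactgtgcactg
Cyp2b13 (GRCm38.p6, chr7:26061245-26061494, plus strand): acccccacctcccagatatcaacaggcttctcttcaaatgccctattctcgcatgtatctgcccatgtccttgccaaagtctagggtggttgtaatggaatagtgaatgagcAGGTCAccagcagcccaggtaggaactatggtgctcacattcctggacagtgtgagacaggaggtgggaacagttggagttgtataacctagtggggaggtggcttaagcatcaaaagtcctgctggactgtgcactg
Cyp3a11 (GRCm38.p6, chr5:145879855-145880104, minus strand): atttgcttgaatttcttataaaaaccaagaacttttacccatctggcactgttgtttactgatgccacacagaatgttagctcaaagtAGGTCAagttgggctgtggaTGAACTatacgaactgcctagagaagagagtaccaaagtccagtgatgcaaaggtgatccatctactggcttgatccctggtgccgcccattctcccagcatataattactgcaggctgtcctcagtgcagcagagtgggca
The Cyp2b9 and Cyp2b13 windows were 99.2% identical, with 248 of 250 bases shared, and each held AGGTCA with its first base 138 bases upstream of the start. Cyp2b10 was 70.0% identical to either and held neither half-site in this window. Cyp3a11 held AGGTCA 162 bases upstream and, on the other strand, AGTTCA 142 bases upstream. AGGTCA occurred in 14% of all 32851 RefSeq windows of this length and AGTTCA in 11.8%. Among windows of genes tested the shares were 11.4% and 9.01%. Among the 44 windows of CAR and PXR targets called higher they were 29.5% and 11.4%. Bases further upstream were not searched, and these shares were not tested. A match is a description of letters and not a site of binding.

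Genes known for induction by PPARα also rose in livers without it. Of 36 tested genes of peroxisomal and PPARα-inducible oxidation, 21 rose and 1 fell, against 6.72% and 4.1% of all genes. The list's median was 0.69, and 12 to 19 rose when single libraries were left out. Cyp4a10, a fatty acid omega-hydroxylase that is a standard readout of PPARα, stood at 0.601, 1.89 and 2.96 CPM with vehicle and at 528, 149 and 248 CPM with PFOA (7.40 ± 0.84, adjusted p = 0.0105). Its neighbour Cyp4a14 gave 0.601, 1.76 and 4.48 CPM against 720, 70.4 and 365 CPM (7.39 ± 1.35, adjusted p = 0.0411). The groups did not overlap in either gene, but the exposed livers differed widely among themselves in Cyp4a14, and its call was lost in 7 of 14 alternatives, including 5 of the 6 in which 1 library was left out. Ehhadh, the bifunctional enzyme of peroxisomal β-oxidation, rose from 136, 164 and 181 CPM to 666, 361 and 409 CPM (1.59 ± 0.24, adjusted p = 0.00559). Acaa1b, a peroxisomal thiolase, rose from 74.8, 69.2 and 71.1 CPM to 583, 409 and 350 CPM (2.65 ± 0.18, adjusted p = 7.07e-05). Vnn1, a pantetheinase, rose from 1.07, 0.676 and 0.378 CPM to 27.9, 6.28 and 14.7 CPM (4.53 ± 0.75, adjusted p = 0.0199), a call lost in 5 of 14 alternatives, 4 of which left out 1 library. Aldh3a2, a fatty aldehyde dehydrogenase, rose by 1.98. Nudt7, a peroxisomal coenzyme A diphosphatase, fell from 889, 876 and 752 CPM to 409, 241 and 428 CPM (−1.22 ± 0.21, adjusted p = 0.00832). Catalase (Cat), the peroxisome's hydrogen peroxide scavenger, gave −0.19 (adjusted p = 0.35), and Ephx2, the soluble epoxide hydrolase, −0.02 (adjusted p = 0.919).

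Mitochondrial fatty acid oxidation moved by smaller steps. Of 26 tested genes, 13 rose and 1 fell, against 6.72% and 4.1% of all genes, with a median of 0.39, and 7 rose without PFOA replicate 2. The carnitine steps were among them. Slc22a5, which brings carnitine into the cell, rose from 8.41, 8.11 and 5.42 CPM to 24.0, 21.2 and 22.8 CPM (1.64 ± 0.17), and Slc25a20, which carries acylcarnitine into mitochondria, from 24.3, 24.99 and 18.7 CPM to 62.6, 56.6 and 58.1 CPM (1.39 ± 0.13). Cpt1a, the gate of the pathway, gave 0.48 (adjusted p = 0.204). Pdk4, the kinase that turns off pyruvate dehydrogenase, gave 3.87, 4.12 and 13.6 CPM against 6.38, 7.30 and 7.07 CPM. Vehicle replicate 3 lay above all PFOA livers while the other 2 vehicle livers lay below them (−0.06 ± 0.50, adjusted p = 0.962). Without that replicate Pdk4 was higher with PFOA by 0.79 (adjusted p = 0.0298). Leaving out the vehicle library that lay above the PFOA livers favours a call, so that fit does not show that Pdk4 rose. Fgf21, a fasting hormone under PPARα, was not tested, with 2 counts in the vehicle and 18 in the PFOA libraries, most of them in PFOA replicate 3 (0.876 CPM).

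**Figure D3:**
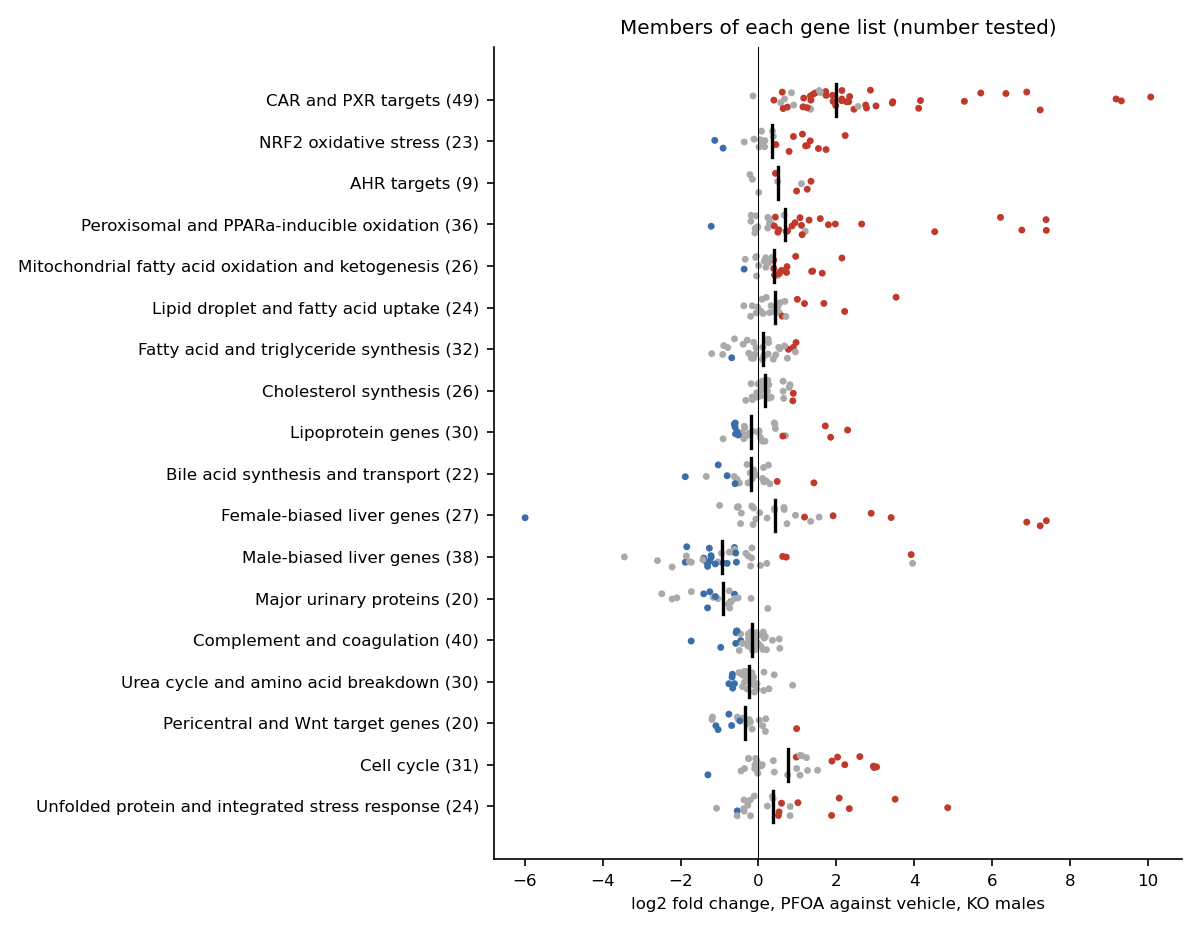
Log2 fold change of PFOA against vehicle in KO males (horizontal) for each tested member of 18 gene lists (rows, number tested in brackets), red for members that rose, blue for members that fell, grey for members not past an adjusted p of 0.05, with a black bar at each list's median. The CAR and PXR list has the highest median of these, 1.99, and the male-biased list (−0.93) and the major urinary proteins (−0.91) have the lowest.

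Storage and uptake of fat showed 6 rises and no fall among 24 tested lipid droplet and fatty acid uptake genes (median 0.44). Of all genes, 6.72% rose and 4.1% fell. Cidec, a lipid droplet fusion protein, rose from 1.74, 3.17 and 2.14 CPM to 7.56, 5.68 and 9.29 CPM (1.68 ± 0.27, adjusted p = 0.00452), and Lpl, the lipase of blood triglycerides, from 8.21, 8.04 and 13.2 CPM to 39.9, 54.0 and 42.2 CPM (2.21 ± 0.21). Plin2, the common droplet coat protein, had 0.53 (adjusted p = 0.186). Angptl4, an inhibitor of Lpl, rose from 21.6, 17.8 and 18.5 CPM to 104, 84.7 and 93.0 CPM (2.29 ± 0.12, adjusted p = 7.11e-06). Pparg, the PPAR of fat storage, rose from 8.21, 7.90 and 6.88 CPM to 14.1, 15.7 and 16.2 CPM (1.01 ± 0.13, adjusted p = 0.00168). Synthesis moved little as a group, with 3 rises and 1 fall of 32 fatty acid and triglyceride genes and 2 rises of 26 cholesterol genes, near the shares of all genes. Fasn, the fatty acid synthase, gave 74.6, 83.8 and 152 CPM with vehicle and 165, 74.6 and 42.5 CPM with PFOA. These ranges crossed fully (−0.13 ± 0.60, adjusted p = 0.924). Fads1, a desaturase, rose (0.90 ± 0.13, adjusted p = 0.00268). Of 30 lipoprotein genes, 4 rose and 6 fell, the falls including Apoc4 (−0.60) and Ces3a (−0.62); 1 fell without PFOA replicate 2.

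Bile acid genes gave 4 falls and 2 rises among 22 tested, against 4.1% and 6.72% of all genes. The rises were near the share of all genes. Cyp7b1, an oxysterol hydroxylase that male liver holds at higher levels, fell from 638, 944 and 810 CPM to 178, 203 and 265 CPM (−1.88 ± 0.19, adjusted p = 0.000483). Fgfr4, the receptor for the gut's bile acid signal, fell from 67.1, 77.9 and 57.3 CPM to 28.6, 34.2 and 35.5 CPM (−1.03 ± 0.14, adjusted p = 0.00159). Cyp7a1, the rate-limiting enzyme, ranged from 35.8 to 293 CPM among vehicle livers, highest in replicate 3, and from 39.4 to 71.7 CPM with PFOA, so the groups overlapped (−1.34 ± 0.88, adjusted p = 0.412). Nr0b2, the repressor SHP, was higher with PFOA (1.42 ± 0.31, adjusted p = 0.0359), but its call was lost without vehicle replicate 2 or any 1 of the PFOA replicates. Without PFOA replicate 2 neither rise of the list was called.

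The sex-biased programme of the liver shifted in both directions. Of 38 tested male-biased genes, 15 fell and 3 rose (median −0.93), against 4.1% and 6.72% of all genes. The falls numbered 11 to 15 when single libraries were left out. Hsd3b5, a male-specific steroid reductase, fell from 517, 404 and 339 CPM to 111, 87.6 and 151 CPM (−1.84 ± 0.23, adjusted p = 0.00225), although the call was lost in fits that added other groups, with an adjusted p of 0.217 over the 10 KO libraries. Susd4, a complement regulator, fell from 51.0, 50.1 and 68.4 CPM to 24.7, 20.3 and 25.2 CPM (−1.26 ± 0.14). The major urinary proteins, pheromone carriers made by male liver, gave 6 falls and no rise of 20 tested, 5 of them also on the male-biased list. Mup3 fell from 11650, 11810 and 8423 CPM to 3928, 4353 and 5054 CPM (−1.25 ± 0.16, adjusted p = 0.0015). Against that direction, Cyp4a12b, a male-biased fatty acid hydroxylase, rose from 13.02, 9.46 and 18.7 CPM to 235, 169 and 218 CPM (3.92 ± 0.26, adjusted p = 0.000176). Of 27 tested female-biased genes, 7 rose and 1 fell (median 0.41). Beside Cyp2b9 and Cyp2b13, the rises were Cyp4a10 and Cd36, which are also counted above, Hao2, Slco1a4 and Cyp2c69. Cyp2c69 went from 3.405, 2.36 and 1.51 CPM to 17.4, 21.9 and 14.5 CPM (2.90 ± 0.27, adjusted p = 0.000344). The 1 fall was the largest of all genes tested: Ntrk2, a neurotrophin receptor, went from 15.9, 12.2 and 32.9 CPM to 0.560, 0.179 and 0.175 CPM (−6.00 ± 0.61, adjusted p = 0.00252). Cux2, a female-biased regulator of sex-biased liver genes, gave −0.46 (adjusted p = 0.551), and Bcl6, its male-biased counterpart, −0.75 (adjusted p = 0.106).

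Genes of the growth hormone and IGF axis are on the glucose and insulin response list, where 4 of 25 tested genes fell and 1 rose. Of all genes, 4.1% fell and 6.72% rose. Igf1, the circulating growth factor, went from 1033, 1054 and 856 CPM to 478, 432 and 539 CPM (−1.01 ± 0.13, adjusted p = 0.0014), and Igfals, its carrier subunit, from 222, 237 and 172 CPM to 92.8, 90.4 and 106 CPM (−1.12 ± 0.14, adjusted p = 0.00117). Ghr, the hormone's receptor, fell from 766, 857 and 858 CPM to 611, 608 and 571 CPM (−0.46 ± 0.11, adjusted p = 0.022). Socs2, a feedback inhibitor, ranged from 8.33 to 56.0 CPM among vehicle livers and gave no call (−1.07 ± 0.77, adjusted p = 0.45). The fourth fall was that of Fbp1, a gluconeogenic enzyme, and the rise that of Irs1 (1.44); 2 fell without PFOA replicate 2. 2 male-biased genes split the vehicle livers instead of the exposures. Serpina1e stood at 5269 and 6529 CPM in vehicle replicates 1 and 3 but at 186 CPM in vehicle replicate 2. With PFOA it stood at 279 to 532 CPM (−3.45 ± 1.36, adjusted p = 0.202). Without vehicle replicate 2 its change was −4.01 (adjusted p = 0.00282). Leaving out the vehicle library that lay below the PFOA livers favours a call, so that fit does not show that Serpina1e fell. Selenbp2 gave 434 and 475 CPM in vehicle replicates 1 and 3 and 69.1 CPM in vehicle replicate 2. These 2 were chosen after their values were seen.

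Stress and growth genes rose in part. Of 24 tested genes of the unfolded protein and integrated stress responses, 9 rose and 1 fell, against 6.72% and 4.1% of all genes. Only 3 to 9 of the list rose when single libraries were left out. The rises included Atf4, Asns, Ern1, which encodes the sensor IRE1, and Herpud1, a gene of protein degradation at the endoplasmic reticulum. Ddit3, the transcription factor CHOP, rose from 7.81, 5.40 and 4.23 CPM to 17.7, 27.1 and 28.1 CPM (2.07 ± 0.25, adjusted p = 0.00202). Trib3, a target of ATF4 and CHOP, gave 16.6, 11.8 and 4.98 CPM against 62.9, 123 and 193 CPM (3.51 ± 0.65, adjusted p = 0.0385). The chaperone Hspa5 crossed between groups (−0.21, adjusted p = 0.753), and Pdia6, another protein of endoplasmic reticulum folding, was lower (−0.54, adjusted p = 0.0416). Of 31 cell cycle genes, 8 rose and 1 fell (median 0.75), with 3 to 12 rises when single libraries were left out and 4 without PFOA replicate 2. Cdkn1a, an inhibitor of the cycle, rose from 2.003, 1.01 and 1.70 CPM to 14.8, 10.2 and 11.9 CPM (2.97 ± 0.25, adjusted p = 0.000163). Mki67, a marker of dividing cells, was at 0.935, 1.148 and 2.46 CPM with vehicle and 3.70, 5.50 and 7.71 CPM with PFOA (1.89 ± 0.40, adjusted p = 0.0183). Ccne1, a cyclin of S phase entry, fell from 7.34, 7.30 and 7.82 CPM to 2.97, 3.17 and 2.92 CPM (−1.30 ± 0.17, adjusted p = 0.0014). NRF2 oxidative stress genes gave 10 rises and 2 falls of 23, with 6 rises without PFOA replicate 2. Srxn1, which repairs peroxiredoxins, rose from 25.8, 19.25 and 22.01 CPM to 86.6, 55.1 and 52.2 CPM (1.54 ± 0.21, adjusted p = 0.0033). The falls of the list were Gstp1 and Osgin1.

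Among 40 complement and coagulation genes 7 fell and none rose, although 3 fell without PFOA replicate 2. C9, the last component of the complement pore, fell from 798, 939 and 967 CPM to 218, 250 and 343 CPM (−1.73 ± 0.17, adjusted p = 0.00035). Urea cycle and amino acid genes gave 5 falls of 30 and 1 without PFOA replicate 2. Among 20 pericentral and Wnt target genes 5 fell and 1 rose. Nkd1 and Notum, feedback inhibitors of Wnt signalling, fell by 1.04 and 0.69, and Glul, the glutamine synthetase of the innermost hepatocytes, from 1432, 1197 and 1771 CPM to 704, 949 and 928 CPM (−0.76 ± 0.17, adjusted p = 0.0201), a call lost without vehicle replicate 1. The 1 rise, Cyp1a2, is also an AHR target, and went from 1192, 1287 and 1554 CPM to 2741, 2857 and 2311 CPM (0.98 ± 0.14, adjusted p = 0.0023). AHR targets gave 4 rises of 9, Ahr itself among them (1.35). Acute-phase genes gave 4 rises and 1 fall of 30, against 6.72% and 4.1% of all genes, and 2 rises and no fall without PFOA replicate 2. Orm2, an acute-phase plasma protein, rose from 14.8, 12.6 and 11.2 CPM to 66.1, 57.4 and 51.8 CPM (2.19 ± 0.14, adjusted p = 2.12e-05), and interferon response genes gave 1 fall of 32 (Psmb8). Among the other lists, 3 of 23 nuclear receptors and partners rose, 1 of 20 clock genes rose and 3 fell, and 2 of 7 mitochondrially encoded genes fell, with none of the latter without PFOA replicate 2.

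One gene of the neutrophil list rose alone. S100a8, a calcium-binding subunit of the neutrophil protein calprotectin, gave 0.467, 0.540 and 0.252 CPM with vehicle and 87.8, 325 and 257 CPM with PFOA. All 3 exposed livers were above all vehicle livers (9.04 ± 0.82, adjusted p = 0.00443), and the call held in every alternative tried. Its partner subunit S100a9 stayed at 0.448, 0.538 and 0.350 CPM with PFOA and 0.668, 0.608 and 0.0631 CPM with vehicle. The other 4 tested neutrophil markers, Ncf1, Il1b, Csf3r and Cxcr4, had log2 fold changes of 0.14 to 0.41, and the remaining 11 of the 16 were too low to test. Summed, the list reached 94.9 to 331 CPM with PFOA against 3.85 to 9.86 CPM with vehicle, and S100a8 made up nearly all of the sum in the exposed livers. The gene also rose in KO females, from 0.362 CPM in the 1 vehicle library to 89.0 to 137 CPM (8.28 ± 1.17, adjusted p = 0.0136, with the spread taken from the other groups), and stood at 0.130 to 0.268 CPM in vehicle and 2.85 to 8.48 CPM in exposed hPPARa males (4.66 ± 1.21, adjusted p = 0.0573). The difference between the male genotypes did not pass (4.38 ± 2.67, adjusted p = 0.755).

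The 3 PFOA livers did not respond evenly across these groups, and this was looked at after the values were seen. Over all 896 genes that rose, the highest value lay in replicate 1 for 281, in replicate 2 for 302 and in replicate 3 for 313. Of the 21 peroxisomal and PPARα-inducible genes that rose, 15 were highest in replicate 1, as were 9 of the 13 mitochondrial oxidation genes. Of the 40 CAR and PXR targets that rose, 23 were highest in replicate 2 and 16 in replicate 1, while 31 were lowest in replicate 3. Of the 7 female-biased genes that rose, 4 were highest in replicate 2, which held Xist, and 3 in replicate 1. Without replicate 2 that list still gave 7 rises and 1 fall. Replicate 3 instead held the highest value of 8 of the 9 stress response genes and 6 of the 8 cell cycle genes, and replicate 1 the lowest of 7 and 6 of them. Library sizes of the 3 were alike, at 16666750 to 16995298 counts. With 3 livers these are descriptions, and no test was made.

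**Figure D4:**
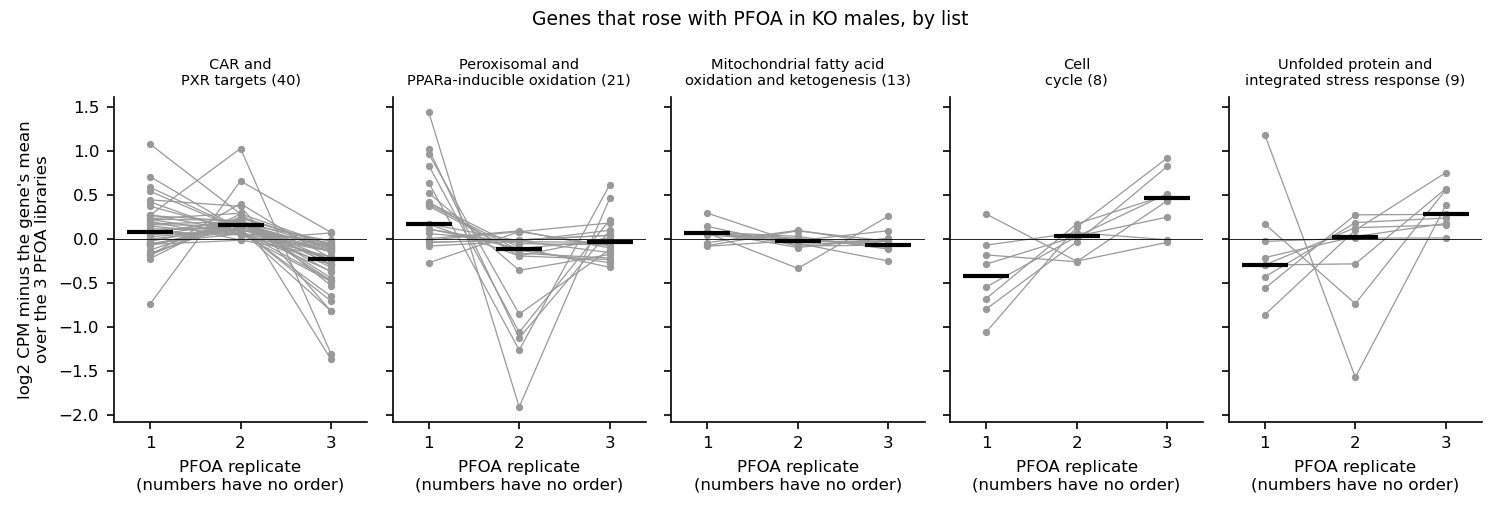
Log2 CPM in each PFOA library of KO males minus the gene's mean over the 3 (vertical), for genes of 5 lists that rose with PFOA (number in brackets), 1 grey line per gene and a black bar at the median; replicate numbers have no order. Peroxisomal genes are mostly highest in replicate 1 (15 of 21), and stress response genes in replicate 3 (8 of 9).

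Whether the response depends on the human receptor was read from the males of both genotypes in 1 fit of 11 libraries. In it PFOA changed 1552 of 14300 genes in KO males (10.9%, with 6.38% higher and 4.47% lower) and 1102 in hPPARa males (7.71%, with 4.86% higher and 2.85% lower). The 2 sets shared 592 genes, 38.1% of the first and 53.7% of the second, and 590 of them moved the same way. KO males have 3 vehicle libraries and hPPARa males 2, so the numbers called and these shares also depend on group size. The term for the difference passed for 26 genes (0.182%). It was positive, that is with a higher log2 fold change in KO, for 10 (0.0699%) and negative for 16 (0.112%). An unadjusted p under 0.05 was found for 1099. The authors deposited the counts of each genotype in a table of its own, and a difference between the tables and one between genotypes cannot be told apart.

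In the peroxisomal list 4 of 36 genes passed, all with a smaller rise in KO males or none, while 20 rose in KO and 24 in hPPARa males. Ehhadh went to 2725 to 3012 CPM in hPPARa males from 163 to 208 CPM (3.94 ± 0.27), a rise that exceeded that of KO males (1.58 ± 0.21) by 2.37 ± 0.31 on the log2 scale (adjusted p = 0.00982). Pex11a, which divides peroxisomes, rose by 1.90 ± 0.12 in hPPARa and by 0.49 ± 0.10 in KO males (difference −1.41 ± 0.15, adjusted p = 0.00189). Acot8, a peroxisomal thioesterase, and Ephx2 differed by −1.08 and −0.90. Outside that list, Hsd17b11, a lipid droplet dehydrogenase, differed by −1.63 ± 0.19 and Pparg by −1.60 ± 0.25. Pparg began lower in hPPARa males, at 2.99 to 3.02 CPM with vehicle against 6.88 to 8.21 CPM in KO males. Its levels with PFOA overlapped, at 14.2 to 21.6 CPM in hPPARa and 14.1 to 16.2 CPM in KO males. Chrna2, a nicotinic receptor subunit, rose in hPPARa males from 2.82 to 3.44 CPM to 15.03 to 19.8 CPM and was lower in exposed KO males in this fit (−0.68 ± 0.19, adjusted p = 0.0387), although not in the fit of the 6 libraries (adjusted p = 0.0748). Its difference was −3.18 ± 0.30. Them7, a thioesterase family member, and Car2, a carbonic anhydrase, rose in hPPARa males, with −0.07 and −0.15 in KO males and differences of −2.40 ± 0.31 and −2.25 ± 0.31. Cyp4a10, Cyp4a14, Vnn1 and Acot1 had larger fold changes in hPPARa males, but none of these 4 differences passed. Those of Cyp4a10 and Cyp4a14 had wide errors (−1.09 ± 1.03 and −2.68 ± 1.41). Levels in exposed livers did not overlap between the genotypes. Cyp4a10 stood at 3728 to 4316 CPM in hPPARa and 149 to 528 CPM in KO males, and Cyp4a14 at 7500 to 8990 and 70.4 to 720 CPM. Vnn1 stood at 260 to 280 and 6.28 to 27.9 CPM, and Acot1 at 263 to 356 and 79.8 to 91.4 CPM. Among the 10 genes with a positive difference were Gstt3, a glutathione transferase (3.43 ± 0.17 against 1.65 ± 0.18), Ces2a (2.74 ± 0.13 against 1.49 ± 0.15) and Angptl4 (2.28 ± 0.12 against 1.17 ± 0.13). The largest positive difference was that of Nebl, a nebulin family gene, which rose from 0.267, 0.405 and 0.442 CPM to 22.3, 24.5 and 19.6 CPM in KO males (difference 4.33 ± 0.71, adjusted p = 0.0287). It and the other 5, Lratd1 (3.72), Atp2b2 (2.62), Gm30784 (1.73), Cebpb (1.25) and Hfe (0.90), were named after their values were seen. Angptl4 began higher in hPPARa males, at 73.4 to 84.4 CPM. So did Cebpb, at 100 to 116 CPM with vehicle against 21.6 to 30.5 CPM in KO males. Adgrf1, an adhesion G protein-coupled receptor, fell in hPPARa males (−2.03 ± 0.25) and rose in KO males (0.70 ± 0.20, adjusted p = 0.0444), a difference of 2.73 ± 0.32. Cyp2b10 rose in both and its difference did not pass (−1.21 ± 0.38, adjusted p = 0.39). Single libraries carried weight: 9 genes differed without hPPARa vehicle replicate 1, 7 without hPPARa vehicle replicate 2, 11 without KO vehicle replicate 1 and 12 without KO PFOA replicate 2. Of the 11 called genes followed in these fits, Chrna2, Pex11a, Hsd17b11 and Adgrf1 passed whichever library was left out. Nebl, Lratd1, Atp2b2, Gm30784, Cebpb, Hfe, Acot8 and Ephx2 were not followed.

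**Figure D5:**
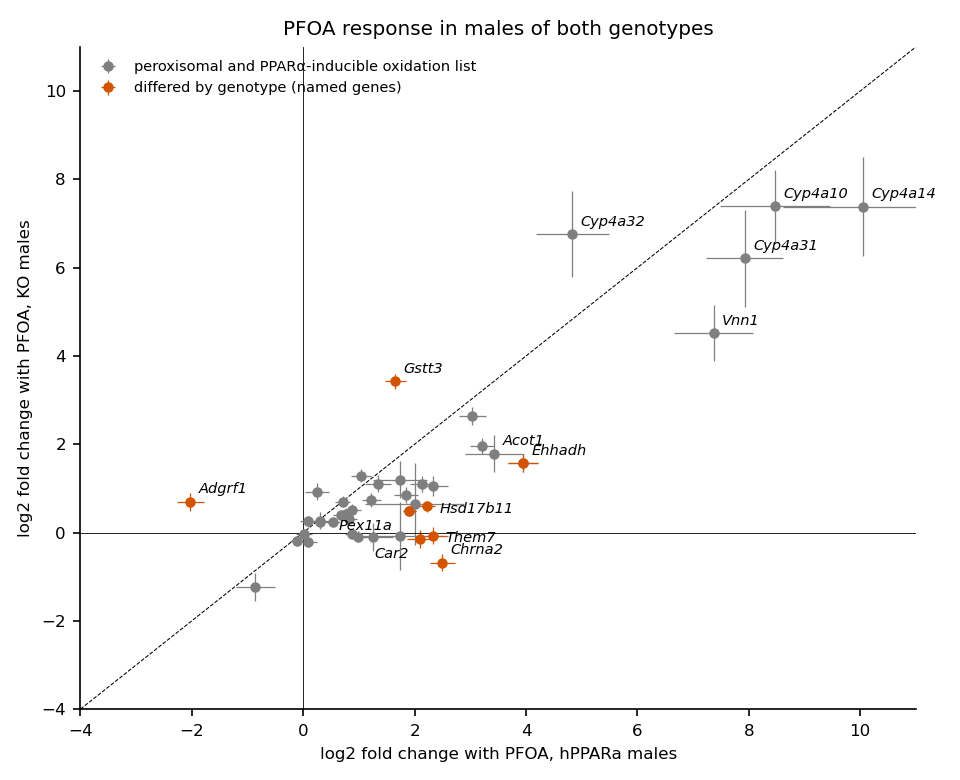
Log2 fold change with PFOA in KO males (vertical) against hPPARa males (horizontal), with bars of 1 SE, for the 36 tested peroxisomal and PPARα-inducible genes (grey) and 8 genes whose response differed by genotype (orange); the dashed line marks equal responses. Most oxidation genes lie below the line and above 0 in KO males, with Ehhadh at 1.58 against 3.94.

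KO females gave the other comparison, from a fit of 10 libraries with 1 female vehicle library. That library has no spread of its own and is assumed to vary like the other groups, so every female p-value and every test of a difference between the sexes rests on it. It could not be left out, so no alternative below checks it. It also held raised cholangiocyte markers and some Ddx3y, as given at the end. PFOA changed 1421 of 13848 genes in KO males (10.3%, with 6.07% higher and 4.2% lower) and 552 in KO females (3.99%, with 2.14% higher and 1.84% lower) in it. They shared 281, 19.8% of the first and 50.9% of the second, of which 272 moved the same way. The term for the difference passed for 13 genes (0.0939%), positive in 9 (0.065%) and negative in 4 (0.0289%), and 1426 had an unadjusted p under 0.05. Leaving out 1 library gave 7 to 27 genes: 7 without KO male vehicle replicate 1, 20 without replicate 2 and 27 without replicate 3 of that group, 20 without KO male PFOA replicate 1, and 27 and 22 without KO female PFOA replicates 2 and 3. In this fit male-biased genes gave 2 rises and 13 falls in KO males and 8 rises and no fall in KO females, with medians of −0.94 and 0.29, and 1 of the 38 differences passed. Female-biased genes gave 6 rises and 1 fall in males and 1 rise and 6 falls in females, with 2 of 31 differences past the threshold. Cyp2c69 fell in females from 83.3 CPM to 19.9 to 29.2 CPM, so that the levels of the exposed sexes lay close (difference of responses 4.65 ± 0.38, adjusted p = 0.00139). Cyp2b9 stood at 196 CPM in the female vehicle liver and 153 to 266 CPM with PFOA, still above the 11.4 to 27.4 CPM of exposed males (6.73 ± 0.78, adjusted p = 0.0273); this call was lost without any 1 of 4 libraries, or without both PFOA libraries that held transcripts of the other sex. Cyp2c67, another P450, fell in males from 515, 707 and 623 CPM to 239, 295 and 264 CPM and rose in females from 91.7 CPM to 221 to 306 CPM (−2.76 ± 0.30, adjusted p = 0.00288). Cyp2d9, a male-specific P450, rose by 0.62 in males and from 194 CPM to 960 to 1493 CPM in females (−2.05 ± 0.28, adjusted p = 0.0189). Ppp1r3g, a glycogen-targeting phosphatase subunit, rose in males from 0.334, 0.270 and 0.568 CPM to 8.45, 3.89 and 7.36 CPM and fell in females from 27.1 CPM to 2.53 to 5.49 CPM (6.67 ± 0.62, adjusted p = 0.00246). Ezr, Coro2a and Cd24a did not pass in males, and the female vehicle library held 39.4, 15.1 and 39.9 CPM of them against at most 5.90, 2.20 and 2.13 CPM in exposed females. That library's 13 cholangiocyte markers summed to 309 CPM against 62.3 to 92.7 CPM in exposed females, with Krt19 at 60.8 CPM, and it held 1.86 CPM of Ddx3y. KO female PFOA replicate 2 held more Ddx3y, at 4.06 CPM. It and KO male PFOA replicate 2 are the PFOA libraries with transcripts of the other sex. The part of these shifts in the female values was not tested.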

How the data were processed

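Liver RNA was extracted with a kit that removes genomic DNA, and samples with a RIN above 7 were sequenced, per the labels' protocols. The authors deposited whole-number counts per gene symbol, made with FastQC 0.11.5, cutadapt 1.15, STAR 2.5.3, featureCounts 1.6.1 and GRCm39, per the submitters' processing notes. No source used here names the strand setting, so overlapping and antisense genes cannot be separated. The 2 tables hold 53599 symbols, and 17159 were without counts throughout. Counts were tested here with edgeR 4.0.16 (R 4.3.3): TMM factors, filterByExpr with a minimum count of 10, and robust quasi-likelihood fits of the 6 KO male libraries, the 11 male libraries (genotype term) or the 10 KO libraries (sex term), with Benjamini-Hochberg adjustment over all genes tested. SE is the log2 fold change over the square root of F. CPM use TMM factors over 20 libraries. Alternatives were DESeq2 1.42.0, other scaling, filters and fits, a replicate block and leaving out each library. The KO female vehicle library was the exception for the sex term, which needs it, and was never left out. Replicate numbers are from the labels; same-numbered libraries deviated with correlations of −0.096, −0.021 and −0.053, so they were not treated as pairs. In data simulated from these libraries, false calls exceeded the nominal rate.

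Genes named are the 12 highest and 12 lowest called changes with a mean of at least 1 CPM, up to 4 called members per list, a set of receptor and target genes, and the 8 leading genes of each term; some others were chosen after their values were seen. The groups and gene lists were chosen with earlier results of these data known. Results for some members of the lists are not reported here.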

Additional observations from a re-analysis of the deposited data

Results flagged for a closer look

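These genes were singled out because their response to PFOA differed between 2 groups by an interaction term (edgeR's quasi-likelihood test, adjusted p under 0.05). Between KO and hPPARa males, the response was smaller in KO for Ehhadh (−2.37), Pex11a (−1.41), Hsd17b11 (−1.63), Them7 (−2.40), Car2 (−2.25) and Pparg (−1.60), each given as KO minus hPPARa on the log2 scale. It was larger in KO for Gstt3 (1.77), Ces2a (1.25) and Angptl4 (1.11), and of opposite sign for Adgrf1 (2.73, with a rise in KO) and Chrna2 (−3.18, with a fall in KO in this fit). Pparg began lower in hPPARa males with vehicle, and its levels with PFOA overlapped between the genotypes.

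Between KO males and KO females, the male minus female difference was 4.65 for Cyp2c69, 2.66 for Ezr, 6.67 for Ppp1r3g, 3.45 for Coro2a, 3.82 for Cd24a and 6.73 for Cyp2b9. It was −2.76 for Cyp2c67, −1.69 for Srd5a1, a steroid reductase, and −2.05 for Cyp2d9. The female vehicle group is 1 library, whose spread is taken from the other groups, and its cholangiocyte marker sum stood apart from those of the exposed females. No group of these contrasts has the 4 libraries that a search for single outlying values needs.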

How the results depend on the processing

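In KO males, 1442 genes changed. With no filter on low counts 2275 did, and leaving out 1 library gave 662 to 1358, with 662 without PFOA replicate 2, 797 without PFOA replicate 3 and 810 without vehicle replicate 1. The replicate block gave 984, of which 923 were among the 1442. DESeq2 called 1623 and shared 1321. Of 140 called genes followed, 85 kept their call under every alternative and 95 with each library left out. Pdk4 reversed to 0.015 with library totals only, 0.159 with the replicate block and 0.794 without vehicle replicate 3 (range −0.357 to 0.794 leaving out 1 library). Fasn reversed to 0.014, 0.223 and 0.254 without PFOA replicate 2, PFOA replicate 3 and vehicle replicate 3 (range −0.818 to 0.254), and Ppara ranged from −0.017 to 0.208. None of these 3 genes was called in the fit as reported. The cause was not tested.

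The genotype term passed for 26 genes, 145 with DESeq2, 260 with no filter, 39 with the replicate block and 7 to 37 leaving out 1 library. The sex term passed for 13, 172, 381 and 10 in the same order, 7 to 27 leaving out 1 library, and 15 without both PFOA libraries that held transcripts of the other sex, an alternative chosen after seeing the data. Of 11 and 9 called genes followed for the terms, 3 and 5 kept their call under every alternative. The cause was not tested. No alternative for the sex term left out the KO female vehicle library, which that term needs. Genes with a few counts in a group have wide ratios, and the counts of 3 against 3 libraries limit what can be called.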
